A study of Mus musculus with 2 samples.

Results

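The colony stimulating factors and their receptors were followed as 8 genes, taken by symbol from the 32285 genes of the count tables. They are 4 ligands (Csf1, Il34, Csf2 and Csf3) and 4 receptor chains (Csf1r, Csf2ra, Csf2rb and Csf3r), and all 8 had UMIs in both libraries. The identifiers in the files are ENSMUSG00000014599 (Csf1), ENSMUSG00000031750 (Il34), ENSMUSG00000018916 (Csf2), ENSMUSG00000038067 (Csf3), ENSMUSG00000024621 (Csf1r), ENSMUSG00000059326 (Csf2ra), ENSMUSG00000071713 (Csf2rb), ENSMUSG00000028859 (Csf3r). UMIs are unique molecular identifiers, each of which stands for 1 captured transcript molecule. The data come from droplet single-cell RNA sequencing of mouse prostate, with 1 library of tumour tissue and 1 of normal tissue next to a tumour. In both libraries the tissue was digested with collagenase and trypsin, cells with and without CD45, the pan-leukocyte surface protein, were sorted, and both fractions shared a loading channel. The sort and the loading therefore set the share of leukocytes, while the labels state neither strain nor genotype, age, tumour model or number of mice. Each group is 1 library with no replicate, so no test between tissues was possible. Ranges in parentheses are 95% intervals for counting error alone. Of each pair of values, the first is from normal adjacent tissue.

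CSF1 and interleukin 34 are the ligands of CSF1R, the receptor tyrosine kinase on which the survival and differentiation of most tissue macrophages depend. GM-CSF, the product of Csf2, acts through an alpha chain of its own (Csf2ra) and a beta chain (Csf2rb) that is shared with the receptors for interleukin 3 and interleukin 5, and it acts on macrophages, dendritic cells and granulocytes. G-CSF, the product of Csf3, signals through the receptor CSF3R and drives the production and release of neutrophils. In tumours these factors are known for shaping the myeloid infiltrate, and in the prostate as elsewhere their sources may be epithelial, stromal or immune.

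The 6209 and 7768 cells kept were sorted into 18 classes by fixed marker genes, none of which is a member of the family, and each class is called X-like after its markers. Gates were passed by 4012 cells (64.6%) and 5013 cells (64.5%). A further 1293 cells (20.8%) and 1752 cells (22.6%) carried markers of a second main lineage, most often macrophage with T cell markers (943 and 1032 cells), and were left out of the classes. Their median UMI count was 20656 and 15524, against 6017 and 6015 over all barcodes. The remaining 904 and 1003 cells passed no gate. There were 18 barcodes that occurred in both libraries. Each of 15 classes had at least 50 cells in both libraries. The epithelial cells gated on markers that include Krt4, Psca, Krt7 and Ly6d had none of their markers among their 10 leading genes, which were led by Tff3, Sval1 and Reg3g, and they are called Krt4/Psca-gated epithelial cells here. Levels are in CPM (counts per 1e+06 UMIs summed over a class), and they are compared between classes or libraries, not between genes.

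Upstream sequences were taken from RefSeq (GRCm38.p6), which held an entry for 4 of the 8 members, Csf1, Csf2, Csf2ra and Csf3r. They are shown for Csf1, Csf2ra and Csf3r because these 3 genes had their highest level in neutrophil-like cells of both libraries among classes of at least 50 cells. The bases shown lie upstream of the RefSeq start and stop before any exon of the GENCODE vM21 annotation, at chr3:107760470-107760719 on the minus strand for Csf1, chr19:61228430-61228668 on the minus strand for Csf2ra and chr4:126024409-126024549 on the plus strand for Csf3r. Capitals mark GGAA, the core that ETS factors such as the myeloid factor PU.1 recognise, or its reverse complement TTCC.
Csf1: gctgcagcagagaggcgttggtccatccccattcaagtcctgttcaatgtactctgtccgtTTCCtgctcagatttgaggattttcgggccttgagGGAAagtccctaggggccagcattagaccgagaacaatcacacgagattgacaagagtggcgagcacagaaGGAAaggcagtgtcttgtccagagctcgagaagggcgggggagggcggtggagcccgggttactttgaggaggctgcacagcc
Csf2ra: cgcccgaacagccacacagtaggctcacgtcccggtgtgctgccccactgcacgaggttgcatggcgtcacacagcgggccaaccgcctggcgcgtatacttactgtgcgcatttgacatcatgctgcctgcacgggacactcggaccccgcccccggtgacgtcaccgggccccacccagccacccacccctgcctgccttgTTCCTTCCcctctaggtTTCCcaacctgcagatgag
Csf3r: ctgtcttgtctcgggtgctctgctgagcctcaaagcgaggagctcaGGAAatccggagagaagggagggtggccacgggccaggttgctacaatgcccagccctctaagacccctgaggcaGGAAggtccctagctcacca
The search covered both strands. Csf1 held 3 matches in 250 bases, Csf2ra 3 in 239 bases and Csf3r 2 in 141 bases. Of 32851 promoter entries, 93.4%, 92.6% and 79.6% held GGAA or TTCC in windows of these lengths, so a match is common. The longer form GAGGAA or TTCCTC was searched first, and GGAA was taken after it had 0 matches in each of the 3 windows, against 23.3%, 22.1% and 14.0% of all entries.

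Among gated cells, neutrophil-like cells held the most Csf1 UMIs of the cell groups. They held 399 of 846 gated Csf1 UMIs in the normal adjacent library (47.2%, 43.8 to 50.6) and 611 of 1183 in the tumour library (51.6%, 48.8 to 54.5), although they were 12.6% and 19.8% of gated cells. Fibroblast-like cells held 15.0% and 15.6% of these UMIs from 2.69% and 4.47% of gated cells, and macrophage-, monocyte- and dendritic-like cells together 18.7% and 23.4%. Gated cells as a whole held 42.0% and 45.9% of all Csf1 UMIs, while the cells with a second lineage held more than any gated group (931 of 2015 and 1141 of 2578 UMIs). With those cells kept in the class of their strongest markers, neutrophil-like cells held 29.6% and 36.7% of the Csf1 UMIs of all classes and fibroblast-like cells 9.90% and 8.86%.

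**Figure D1:**
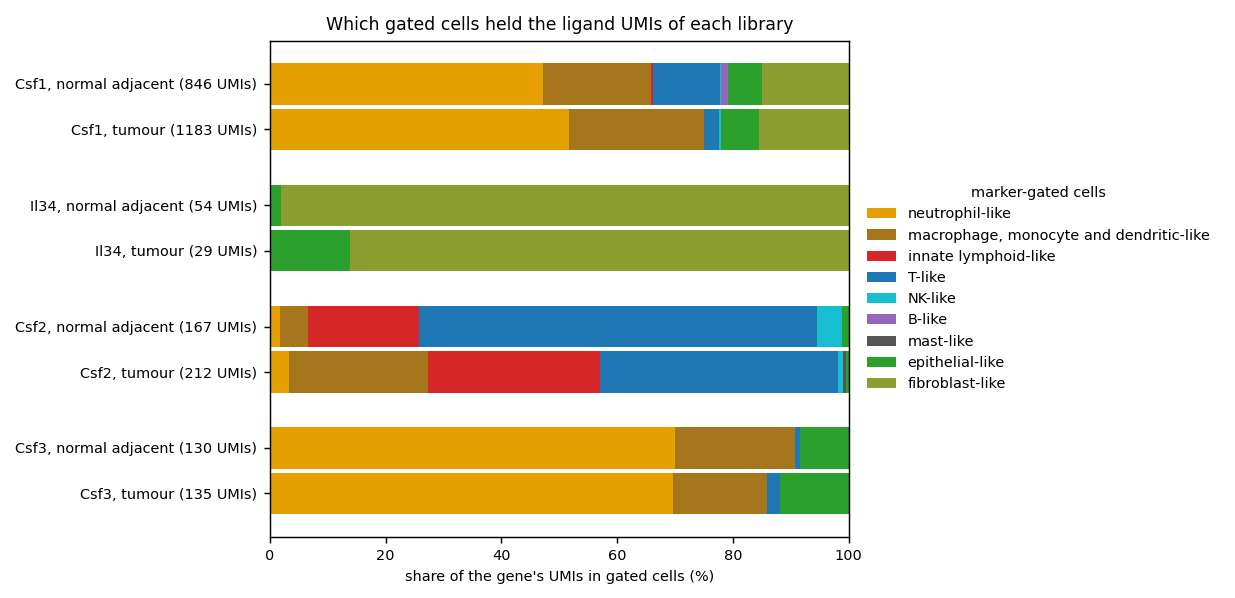
Share (x axis, %) of each ligand's UMIs in gated cells by marker-gated cell group, 1 bar per gene and library, with the number of UMIs in the label. Neutrophil-like cells held 47.2% and 51.6% of Csf1 UMIs and 70.0% and 69.6% of Csf3 UMIs, fibroblast-like cells held 98.1% and 86.2% of Il34 UMIs, and T-like and innate lymphoid-like cells held most Csf2 UMIs.

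In neutrophil-like cells the Csf1 level was 256 CPM (232 to 283) in the normal adjacent library and 230 CPM (212 to 249) in the tumour library. It was spread over many cells, with a Csf1 UMI in 167 of 507 cells (32.9%) and 320 of 993 cells (32.2%), and no cell held over 21 UMIs. In fibroblast-like cells Csf1 stood at 116 CPM (97.0 to 138.5) and 113 CPM (97.2 to 131), in 54 of 108 and 84 of 224 cells. The interval of neutrophil-like cells lay above that of fibroblast-like cells in both libraries, and the fibroblast interval lay above that of every other class with at least 50 cells. Monocyte-like cells followed with 30.7 and 28.5 CPM, and below them macrophage-like cells with 14.6 and 14.3 CPM, Krt4/Psca-gated epithelial cells with 16.5 and 10.4 CPM and the remaining epithelial-like cells with 4.52 and 16.4 CPM, whose intervals overlapped those of neighbours. Neutrophil-like cells held few UMIs, with medians of 2783 and 2236 UMIs. When each cell was thinned to 1000 UMIs, a Csf1 UMI was found in 17.5% and 17.6% of neutrophil-like cells, in 8.08% and 9.68% of fibroblast-like cells and in 0.697% and 1.16% of macrophage-like cells. Neutrophil-like cells with and without Csf1 carried macrophage markers at like levels, with means of 5.90 and 5.51 marker UMIs per 10000 in the normal adjacent library and 5.82 and 6.07 in the tumour library.

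Il34 UMIs of gated cells lay mostly in fibroblast-like cells, which held 53 of 54 gated Il34 UMIs (98.1%, 90.1 to 99.95) and 25 of 29 (86.2%, 68.3 to 96.1), and the other 1 and 4 UMIs lay in epithelial-like cells. No immune class had an Il34 UMI. The level in fibroblast-like cells was 48.6 CPM (36.4 to 63.5) in the normal adjacent library, from 15 of 108 cells, and 15.3 CPM (9.93 to 22.7) in the tumour library, from 12 of 224 cells. The tumour level was 3.17-fold lower (1.93 to 5.32), and 8.28% of 9158 genes tested in fibroblast-like cells were past 1.5-fold lower. Without the cell richest in Il34 in each library the log2 ratio was -1.73, against -1.66 with all cells. Of the Il34 cells, 9 of 15 and 8 of 12 also had a Csf1 UMI, against 50.0% and 37.5% of all fibroblast-like cells, and their median UMI counts (18565 and 14700) were above those of the class (8096 and 5367). For Csf1, the other ligand of CSF1R, the ratio of tumour to normal adjacent in fibroblast-like cells was 0.970 (0.770 to 1.23).

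**Figure D2:**
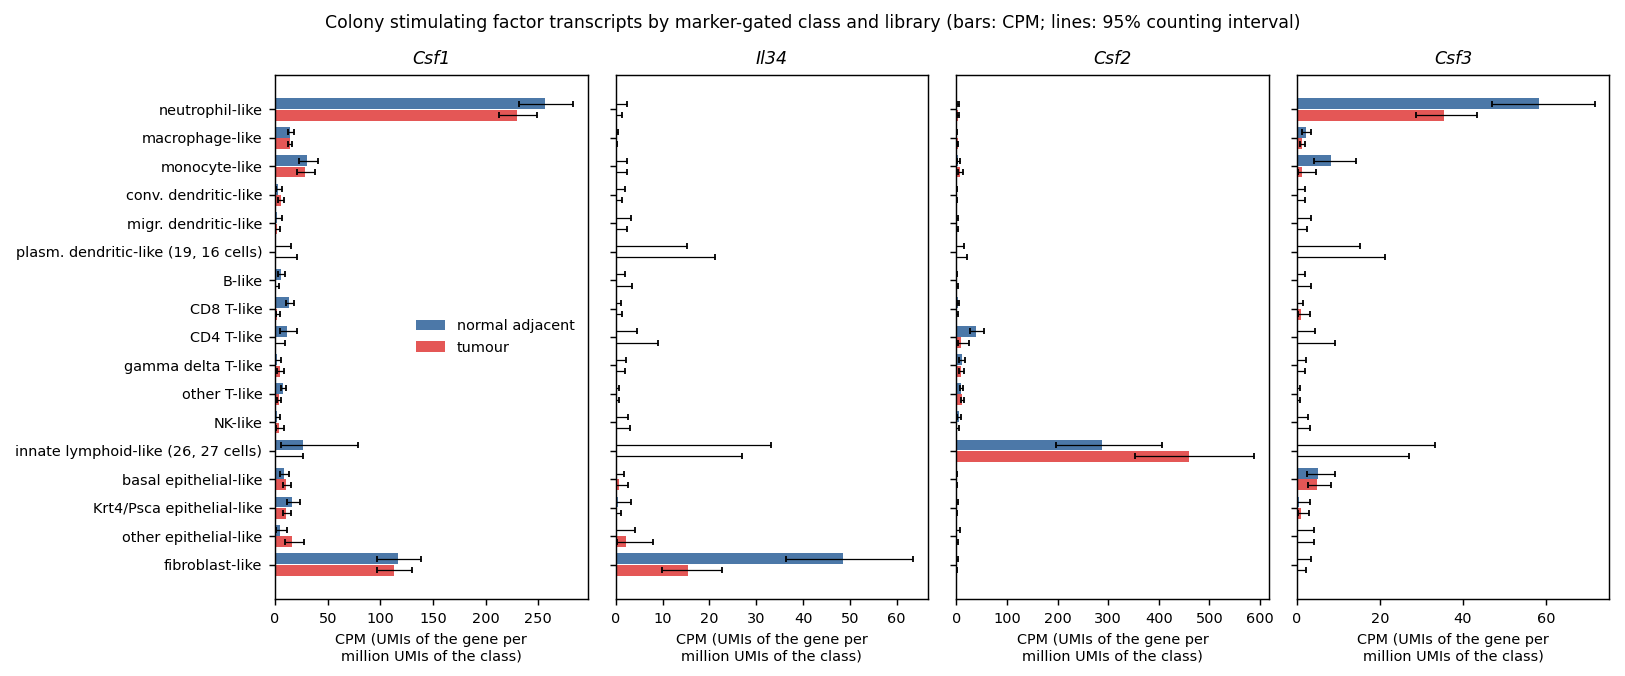
CPM of the 4 ligands (x axes) in each marker-gated class (y axis) of the normal adjacent (blue) and tumour (red) libraries, with lines for the 95% counting interval and the mast-like class (5 and 12 cells) left out. Csf1 and Csf3 were highest in neutrophil-like cells, Il34 in fibroblast-like cells and Csf2 in innate lymphoid-like cells.

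Among gated cells Csf2 UMIs lay for the most part in lymphoid classes, and their level was highest in a small group of innate lymphoid-like cells. These 26 and 27 cells were gated on markers that include Gata3, Il1rl1, Il13, Il7r and Kit, with leukocyte genes. T cell markers had to stay under 50% of the T gate or under 3 UMIs, and were not absent. Their median was 2.93 and 3.46 UMIs per 10000. The innate lymphoid-like cells held 32 of 167 gated Csf2 UMIs (19.2%, 13.5 to 25.96) and 63 of 212 (29.7%, 23.7 to 36.4) from 0.648% and 0.539% of gated cells. Gated cells held 41.6% and 44.0% of all Csf2 UMIs, and with cells of a second lineage kept the innate lymphoid-like share was 9.41% and 16.8%. Their level was 288 CPM (197 to 406) and 459 CPM (353 to 588). The UMIs lay in 5 of 26 cells in the normal adjacent library, 18 of them in 1 cell, and in 14 of 27 cells in the tumour library, with at most 13 in a cell. Il5, a cytokine of type 2 lymphoid cells, and Csf2 were found together in 2 of 4 and 9 of 12 Il5 cells. With fewer than 50 cells, the class was not compared between libraries.

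T-like cells held 115 gated Csf2 UMIs (68.9%, 61.2 to 75.8) in the normal adjacent library and 87 (41.0%, 34.3 to 48.0) in the tumour library, from 37.8% and 30.0% of gated cells. The level over all T-like cells was 10.3 CPM (8.50 to 12.4) and 8.50 CPM (6.81 to 10.5). T-like cells with at least 3 UMIs of the type 17 genes (Il17a, Il17f, Il23r, Il22 and Zbtb16) had 18.3 CPM (13.9 to 23.7) in the normal adjacent library and 9.77 CPM (6.64 to 13.9) in the tumour library, and the other T-like cells 7.203 and 7.93 CPM. CD4 T-like cells had 38.6 CPM (26.4 to 54.5), from 32 UMIs in 7 of 110 cells, against 9.82 CPM from 4 UMIs in 3 of 57 cells, a level 3.93-fold lower (1.39 to 15.3) in the tumour library. Of those 32 UMIs 18 lay in 1 cell, and 14.7% of 5906 genes tested in CD4 T-like cells were past 1.5-fold lower. Without the richest cell of each library the log2 ratio was -1.77 against -1.97, and its interval then included 0. Gamma delta T-like cells stood at 10.5 and 9.85 CPM and the remaining T-like cells at 10.2 and 12.01 CPM.

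Macrophage-like cells held 4 Csf2 UMIs in 4 cells of the normal adjacent library and 38 in 12 cells of the tumour library, at 0.558 and 2.52 CPM, a ratio of 4.52 (1.63 to 17.4). A single tumour cell held 22 of the 38, and without the richest cell of each library the log2 ratio went from 2.18 to 1.35 with an interval that included 0. With cells of a second lineage kept it was 0.87. T cell markers were present in 11 of the 12 tumour cells with Csf2 and in 37.4% of the macrophage-like cells without it, and their part in the result was not tested. Monocyte-like cells held 4 and 12 Csf2 UMIs (2.73 and 7.77 CPM), and 10 of the 12 lay in 1 cell. Macrophage-, monocyte- and dendritic-like cells together held 4.79% (2.09 to 9.22) and 24.1% (18.5 to 30.4) of gated Csf2 UMIs. Neutrophil-like cells had 3 and 7 Csf2 UMIs, and fibroblast-like and B-like cells had 0. Csf2 overlaps the antisense gene Gm12223 in the GENCODE vM21 annotation, and Il34 overlaps Gm15894 and Gm15895. Whether the counting used strand is not given in the sources used here.

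Among gated cells, neutrophil-like cells held 91 of 130 Csf3 UMIs (70.0%, 61.3 to 77.7) and 94 of 135 (69.6%, 61.1 to 77.2). Gated cells held 42.6% and 32.6% of all Csf3 UMIs, and cells with a second lineage held more than neutrophil-like cells (150 of 305 and 237 of 414). With those cells kept, the neutrophil-like share was 43.9% and 39.8%. The level in neutrophil-like cells was 58.4 CPM (47.1 to 71.8) in the normal adjacent library, from 30 of 507 cells, and 35.4 CPM (28.6 to 43.3) in the tumour library, from 34 of 993 cells. It was 1.65-fold lower (1.22 to 2.23) in the tumour library, where 7.73% of 7299 genes tested in neutrophil-like cells were past 1.5-fold lower. The UMIs were not held by 1 cell, since the richest had 12 and 14, and the log2 ratio without them was -0.75 against -0.72. With cells thinned to 1000 UMIs it was -0.40 with an interval that included 0. Of the Csf3 cells, 12 of 30 and 10 of 34 also had a Csf1 UMI, against 32.9% and 32.2% of all neutrophil-like cells, and 25 of 30 and 20 of 34 had a Csf3r UMI, against 73.0% and 67.6%. Basal epithelial-like cells had 10 and 13 Csf3 UMIs, of which 8 and 8 lay in 1 cell, and macrophage-like cells 15 and 19. Fibroblast-like cells, a known source of G-CSF in other tissues, had 0 Csf3 UMIs, which allows up to 2.75 and 1.84 CPM.

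Csf1r, the receptor of CSF1 and interleukin 34, was highest in macrophage-like cells of both libraries, at 567 CPM (550.01 to 585) and 578 CPM (566 to 590). A Csf1r UMI was found in 545 of 643 (84.8%) and 908 of 1014 (89.5%) of these cells. Monocyte-like cells followed with 238 CPM (214 to 265) and 273 CPM (247 to 299.9), then neutrophil-like cells with 92.5 CPM (77.995 to 109) and 117 CPM (104 to 131) and conventional dendritic-like cells with 70.5 CPM (59.0 to 83.6) and 76.8 CPM (67.1 to 87.5). These steps did not overlap, except that of neutrophil-like and conventional dendritic-like cells in the normal adjacent library. Among the dendritic cells Csf1r separated subsets, with 79.2 CPM (66.0 to 94.3) and 93.2 CPM (80.9 to 107) in those gated by Cd209a, Mgl2 and Clec10a, genes of monocyte-related and type 2 dendritic cells. It was 9.67 CPM (1.17 to 34.9, 14 cells) and 18.4 CPM (8.80 to 33.8, 33 cells) in those gated by Clec9a and Xcr1, genes of the cross-presenting type 1 cells. Migratory dendritic-like cells stood at 13.6 and 20.3 CPM.

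Neutrophil-like cells with a Csf1r UMI (100 and 212 cells) had means of 6.04 and 6.68 macrophage marker UMIs per 10000, and those without 5.54 and 5.80, while the median of macrophage-like cells was 151 and 149. Low levels were present in lymphoid classes too, such as 28.8 and 34.9 CPM in CD8 T-like cells, in 14.2% and 13.0% of cells, which became 1.79% and 2.96% after thinning. CD8 T-like cells with a Csf1r UMI had means of 8.24 and 8.04 macrophage marker UMIs per 10000 and those without 3.55 and 3.77, and their part in this level was not tested. Fibroblast-like cells gave 2.75 and 5.53 CPM, with a Csf1r UMI in 2.78% and 3.57% of cells at median depths of 8096 and 5367 UMIs. Basal epithelial-like cells had 5.51 and 2.95 CPM, Krt4/Psca-gated epithelial cells 4.54 and 4.56 CPM. The remaining epithelial-like cells had 15.8 CPM (8.66 to 26.6) and 12.04 CPM (6.01 to 21.5). Fibroblast- and epithelial-like cells with 32 or more leukocyte marker UMIs per 10000 had been set aside, so these levels are not an independent background for the lymphoid classes.

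**Figure D3:**
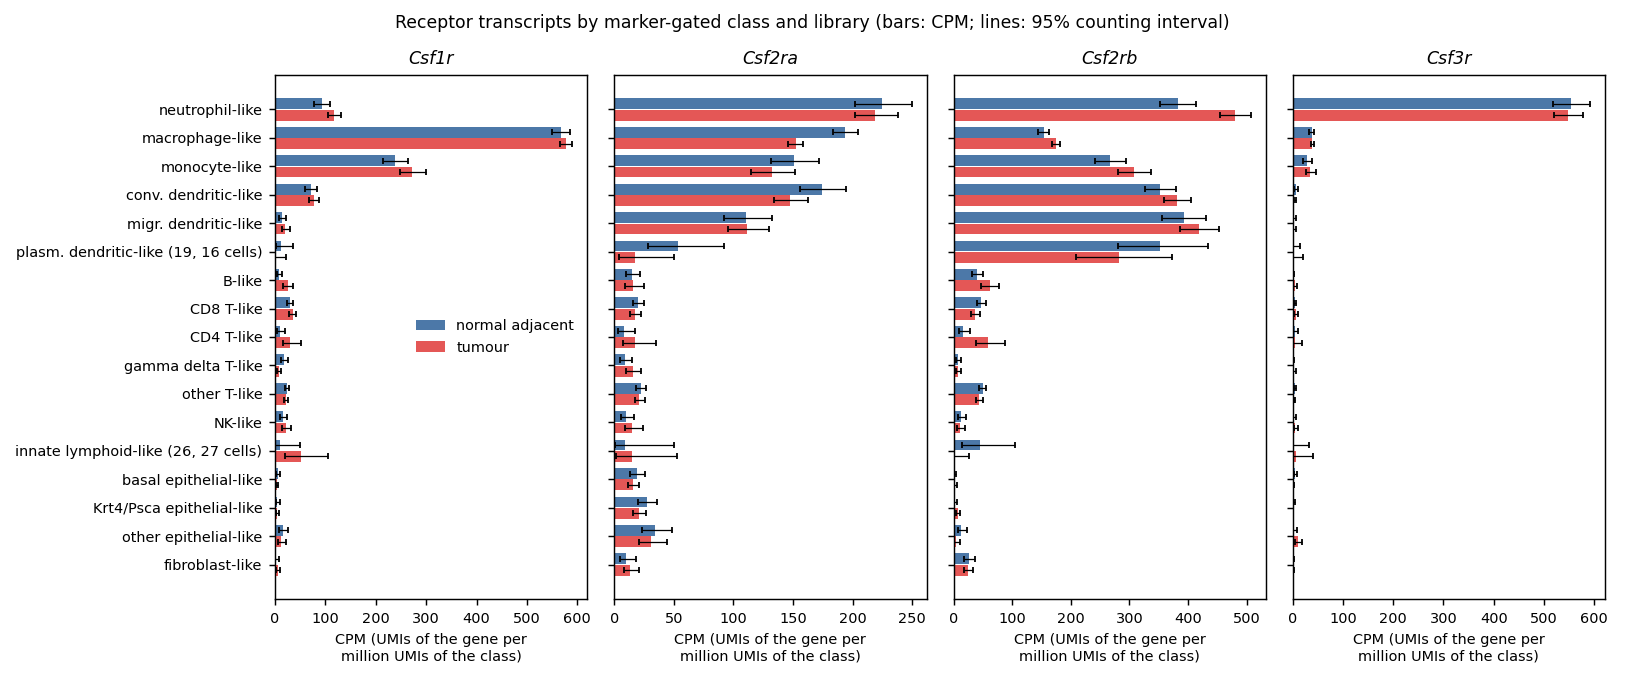
CPM of the 4 receptor chains (x axes) in each marker-gated class (y axis) of the normal adjacent (blue) and tumour (red) libraries, with lines for the 95% counting interval and the mast-like class left out. Csf1r peaked in macrophage-like cells (567 and 578 CPM) and Csf3r in neutrophil-like cells (554 and 548 CPM). Both GM-CSF receptor chains were high in neutrophil-, macrophage-, monocyte-, conventional dendritic- and migratory dendritic-like cells.

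The GM-CSF receptor chains were spread over the myeloid classes in different orders. Csf2ra, the ligand-specific alpha chain, was highest in neutrophil-like cells, at 225 CPM (202 to 250) and 219 CPM (202 to 238). Macrophage-like cells had 194 CPM (184 to 204) and 152 CPM (146 to 159), conventional dendritic-like cells 175 and 148 CPM, monocyte-like cells 151 and 132 CPM and migratory dendritic-like cells 111 and 112 CPM. In the normal adjacent library the neighbours in this order overlapped, and in the tumour library only the neutrophil-like interval stood clear of the next. Csf2rb, the shared beta chain, had another order among classes of at least 50 cells. In the normal adjacent library migratory dendritic-like cells came first (392 CPM, 356 to 431). The intervals of neutrophil-like (382 CPM, 352 to 414) and conventional dendritic-like cells (352 CPM, 326 to 380) overlapped that one. In the tumour library neutrophil-like cells came first with 480 CPM (454 to 507), before migratory dendritic-like cells with 419 CPM (386 to 453). Macrophage-like cells came last of the myeloid classes, with 154 CPM (145 to 163) and 174 CPM (167 to 181). Plasmacytoid dendritic-like cells, of which there were 19 and 16, had 85 and 49 Csf2rb UMIs and 13 and 3 Csf2ra UMIs. Mast-like cells had 15 and 16 Csf2rb UMIs, each time in 2 cells, out of 11106 and 26915 UMIs of all genes. Fibroblast-like cells had 25.7 and 23.9 CPM of Csf2rb, and epithelial-like cells 4.31 and 5.08 CPM.

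Csf2rb has a close paralog in the mouse, Csf2rb2, whose product serves the interleukin 3 receptor. Of 451 words of 50 bases in the last 500 bases of the Csf2rb transcript, the end that 3' libraries read, 0 occurred in a Csf2rb2 transcript, while over the whole transcript 18.4% did. Csf2rb2 followed Csf2rb across classes, but in neutrophil-like cells the paralogs went different ways between the libraries. Csf2rb2 stood at 82.2 CPM (68.6 to 97.7) and 46.0 CPM (38.2 to 54.9), 1.79-fold lower (1.39 to 2.31) in the tumour library, where Csf2rb was 1.26-fold higher (1.14 to 1.39). In macrophage-like cells both were higher in the tumour library, 1.20-fold (1.02 to 1.41) for Csf2rb2 and 1.13-fold (1.05 to 1.22) for Csf2rb.

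Epithelial-like cells held more Csf2ra than Csf2rb UMIs in both libraries. Over all 256 and 353 epithelial-like cells Csf2ra stood at 25.0 CPM (20.6 to 30.0) and 20.01 CPM (16.8 to 23.7), with a UMI in 28.5% and 27.8% of cells. These CPM were near those of CD8 T-like cells (20.1 and 17.3 CPM). The ratio of Csf2ra to Csf2rb UMIs, however, was 5.80 (3.59 to 9.85) and 3.94 (2.69 to 5.92) in epithelial-like cells, against 0.769 and 0.624 over all cells of the libraries, 1.26 (1.16 to 1.36) and 0.875 (0.827 to 0.926) in macrophage-like cells and 0.425 and 0.471 in CD8 T-like cells. The ratio was above 1 with its whole interval in basal epithelial-like cells (12.7 and 4.67), Krt4/Psca-gated epithelial cells (9.60 and 3.05) and the remaining epithelial-like cells (2.50 and 7.00) of both libraries. Gamma delta T-like cells had ratios of 1.27 (0.537 to 3.10) and 1.87 (0.964 to 3.76) and NK-like cells 0.737 (0.342 to 1.55) and 1.29 (0.604 to 2.79). In the tumour library both intervals overlapped that of all epithelial-like cells, and in the normal adjacent library both lay below it. Epithelial-like cells with a Csf2ra UMI were deep, with medians of 33685 and 28460 UMIs against 2547 and 9465 in those without. Macrophage markers were present in 84.9% and 83.7% of them and in 69.4% and 68.2% of those without, at means of 1.88 and 1.82 UMIs per 10000 against 5.99 and 3.54, and their part in the ratio was not tested. After thinning, 1.61% and 0.840% of basal epithelial-like cells and 4.69% and 2.60% of the remaining epithelial-like cells had a Csf2ra UMI.

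**Figure D4:**
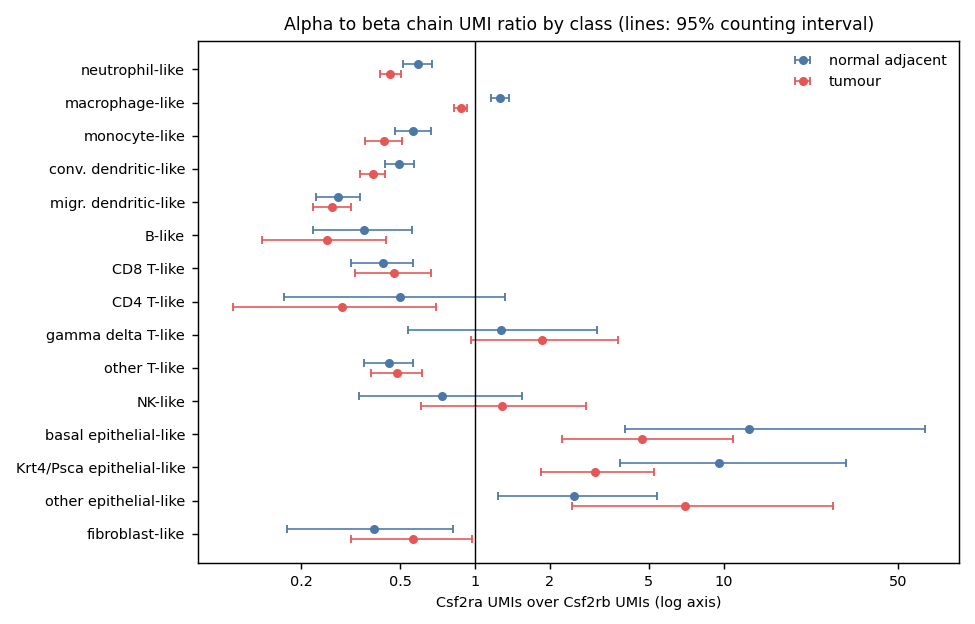
Ratio of Csf2ra UMIs to Csf2rb UMIs (x axis, log scale) by class (y axis) in the normal adjacent (blue) and tumour (red) libraries, with lines for the 95% counting interval. All 3 epithelial-like classes lay above 1 in both libraries, from 2.50 to 12.7, while neutrophil-, monocyte- and dendritic-like cells lay below 1.

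Csf3r, the G-CSF receptor, had the widest step of the 4 chains between its highest class and the next. Neutrophil-like cells had 554 CPM (517 to 592) and 548 CPM (520.2 to 577), with a UMI in 370 of 507 cells (73.0%) and 671 of 993 cells (67.6%). After thinning these shares were 42.0% and 45.1%. The next class, macrophage-like cells, had 37.4 CPM (33.0 to 42.1) and 38.7 CPM (35.6 to 42.0), and monocyte-like cells overlapped it with 28.6 and 35.0 CPM. The level in neutrophil-like cells was thus 14.8 times and 14.2 times that of the next class. Fibroblast-like cells had no Csf3r UMI in 108 and 224 cells, which allows up to 2.78% and 1.34% of cells with a UMI. Neutrophil-like cells carried the ligands Csf1 and Csf3 as well as Csf3r, and of the Csf1 cells 116 of 167 and 213 of 320 also had a Csf3r UMI, a share (69.5% and 66.6%) near that of the whole class.

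Receptor chains were also counted together in single cells, and the overlap was not compared with that of independent detection. In conventional dendritic-like cells Csf2ra was found in 81.1% and 78.4% of cells and Csf2rb in 84.1% and 83.1%. Both GM-CSF receptor chains were found in 71.2% and 67.1% of conventional dendritic-like cells, 49.3% and 51.9% of monocyte-like cells, 34.8% and 47.9% of macrophage-like cells and 27.4% and 24.2% of neutrophil-like cells. The classes differ in depth, and with each cell thinned to 1000 UMIs they were 3.82% and 5.69%, 2.21% and 6.37%, 2.61% and 2.32%, and 7.82% and 7.08%, with neutrophil-like cells highest of these 4 classes. Thinned cells with at least 1 of the 4 chains made up 68.3% and 74.6% of neutrophil-like cells, 65.3% and 60.8% of macrophage-like cells and 4.93% and 4.49% of B-like cells.

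Between the libraries the receptor ratios of neutrophil-, macrophage- and monocyte-like cells that could be compared lay within 1.5-fold. A member was compared in a class where it had at least 20 UMIs over both libraries and the class at least 50 cells in each, which gave 63 comparisons. The tumour level was past 1.5-fold higher in 9 and past 1.5-fold lower in 9 of them, and the interval of 11 of these 18 ratios excluded 1. The 7 whose interval included 1 were Csf1 and Csf3r in conventional dendritic-like cells, Csf1 and Csf2rb in Krt4/Psca-gated epithelial cells, Csf3 in macrophage-like cells, and Csf2ra in NK-like cells and in the gamma delta T class. Of the 17 ligand comparisons 9 were past 1.5-fold, and of the 46 receptor comparisons 9. Over all genes tested the share past 1.5-fold either way ran from 9.18% in the remaining T-like cells to 25.4% in the remaining epithelial-like cells, with 19.8% in neutrophil-like and 10.1% in macrophage-like cells. Those shares pool all genes with at least 20 UMIs and were not matched to the UMI counts of the members.

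Csf1r in macrophage-like cells had a ratio of 1.02 (0.982 to 1.06) and Csf3r in neutrophil-like cells one of 0.990 (0.909 to 1.08). Csf2ra in macrophage-like cells was 1.27-fold lower (1.19 to 1.36) in the tumour library and in conventional dendritic-like cells 1.18-fold lower (1.02 to 1.37). Csf2rb was 1.26-fold higher (1.14 to 1.39) in neutrophil-like, 1.13-fold in macrophage-like and 1.15-fold (1.005 to 1.32) in monocyte-like cells, so that the ratio of alpha to beta chain UMIs was lower in the tumour library in each of these classes. With cells of a second lineage kept, the log2 ratio of Csf2ra in macrophage-like cells was -0.091 against -0.35. Of 7 members compared in macrophage-like cells, 1 was past 1.5-fold higher (Csf2) and 1 lower (Csf3), where 6.03% and 4.07% of 11954 genes were. The log2 ratio of Csf3 there was -0.73, and 0.52 with cells of a second lineage kept. In neutrophil-like cells Csf3, lower, was the 1 of 6 members past the fold, where 12% of 7299 genes were higher and 7.73% lower. In monocyte-like cells 0 of 5 members were past it, against 8.63% of 7754 genes higher and 7.98% lower, and in migratory dendritic-like cells 0 of 3, against 9.32% and 6.93% of 6859 genes. Conventional dendritic-like cells had 1 of 5 higher (Csf1, 6 and 16 UMIs) and 1 lower (Csf3r, 12 and 10 UMIs), against 10.7% and 5.95% of 8591 genes. Among epithelial classes, basal epithelial-like cells had 0 of 3 members past the fold, against 9.55% of 10233 genes higher and 8.33% lower, and the remaining epithelial-like cells 0 of 2, against 16.2% and 9.19% of 7902 genes. Krt4/Psca-gated epithelial cells had 1 of 4 higher (Csf2rb, 5 and 21 UMIs, 12 of them in 1 cell) and 1 lower (Csf1, 29 and 32 UMIs), against 8.63% and 6.95% of 10276 genes. In fibroblast-like cells Il34, lower, was the 1 of 4 past the fold, where 9.41% of 9158 genes were higher and 8.28% lower.

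**Figure D5:**
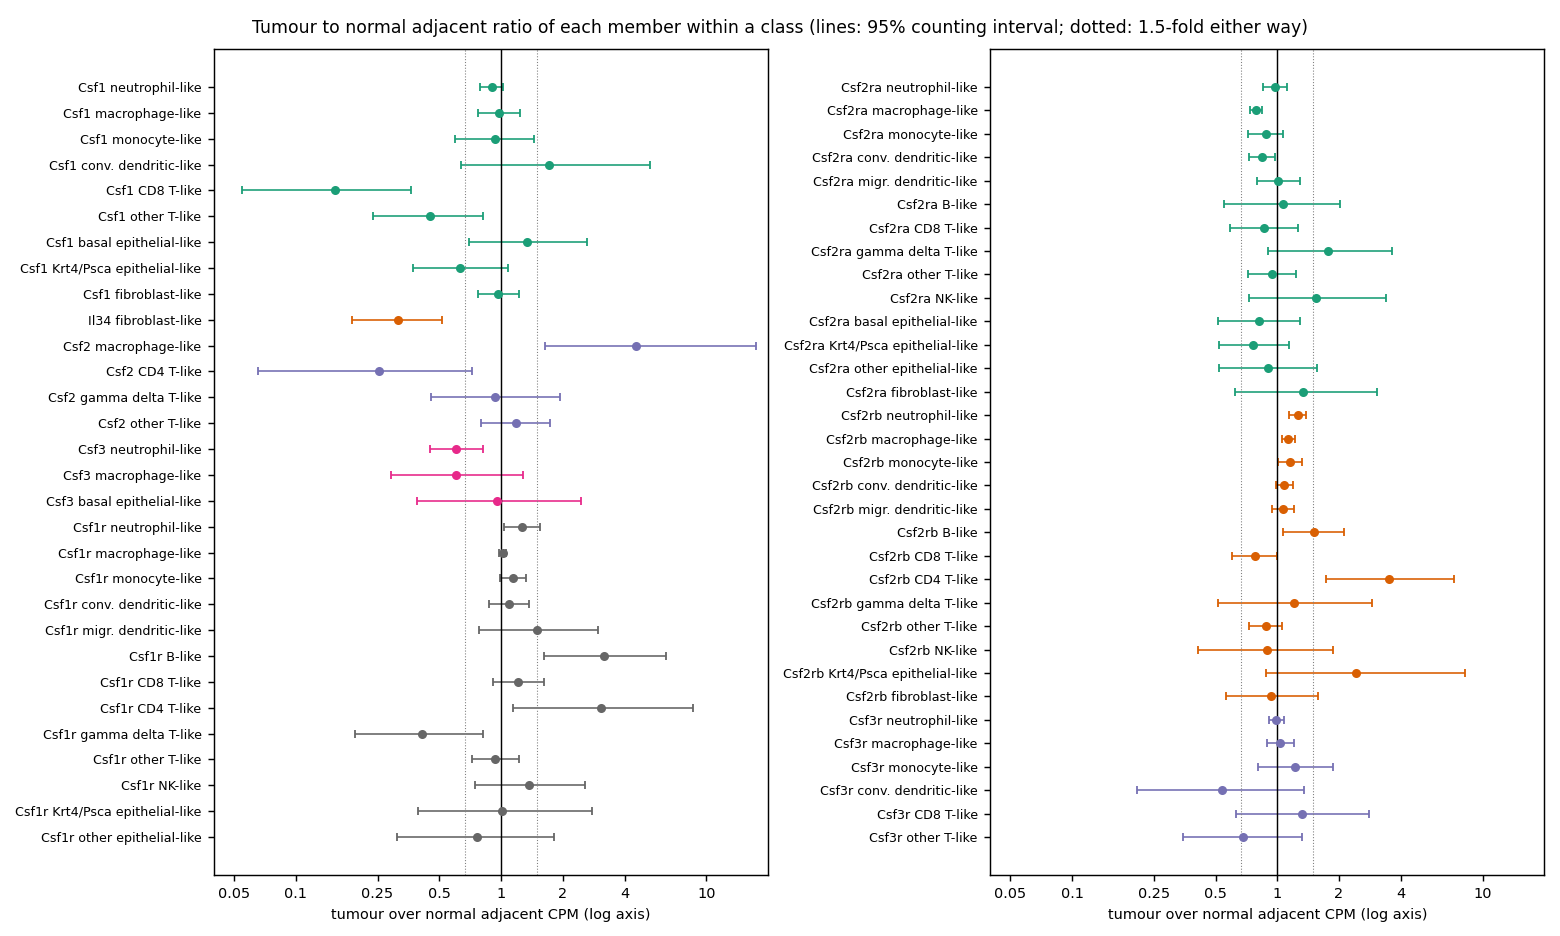
Ratio of tumour to normal adjacent CPM (x axes, log scale) for each of the 63 member and class pairs with at least 20 UMIs, with lines for the 95% counting interval and dotted lines at 1.5-fold either way. Receptor ratios of neutrophil-, macrophage-, monocyte- and dendritic-like cells lay within 1.5-fold apart from Csf3r in conventional dendritic-like cells (10 UMIs in the tumour library), while Il34 in fibroblast-like cells and Csf1 in CD8 T-like cells lay well below 1.

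Among lymphoid cells Csf1 was lower in CD8 T-like cells of the tumour library. The normal adjacent library had 48 Csf1 UMIs in 35 of 394 cells (13.6 CPM, 10.0 to 18.0) and the tumour library 6 UMIs in 5 of 338 cells (2.12 CPM, 0.776 to 4.604), a level 6.41-fold lower (2.74 to 18.3). It was the 1 of 5 members past 1.5-fold in this class, where 7.48% of 9731 genes were past 1.5-fold higher and 6.6% lower. The log2 ratio was -3.15 without the richest cell of each library and -1.17 with cells of a second lineage kept, against -2.68. The 5 tumour cells had a mean of 23.2 neutrophil marker UMIs per 10000, against 1.19 in the others, and the 35 normal adjacent cells 2.25 against 1.37. The remaining T-like cells had 7.33 and 3.29 CPM, with a log2 ratio of -1.15 that became -0.01 with cells of a second lineage kept, and 4.6% of 10752 genes were past 1.5-fold higher and 4.58% lower there. CD4 T-like cells had 9 and 0 Csf1 UMIs and B-like cells 10 and 0, the 10 in 3 cells.

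Receptor chains at low counts were higher in B-like and CD4 T-like cells of the tumour library. In B-like cells Csf1r stood at 7.85 and 24.8 CPM (15 and 27 UMIs, 3.16-fold, 1.62 to 6.39) and Csf2rb at 40.8 and 61.5 CPM (1.51-fold, 1.07 to 2.12), the 2 of 3 members past 1.5-fold higher in a class where 8.87% of 7778 genes were higher and 8.59% lower. In CD4 T-like cells Csf1r stood at 9.65 and 29.5 CPM (8 and 12 UMIs) and Csf2rb at 16.9 and 58.9 CPM (14 and 24 UMIs in 7 and 6 cells), and 8.72% of 5906 genes were past 1.5-fold higher. Of the 24 Csf2rb UMIs 11 lay in 1 cell, and without the richest cell of each library the log2 ratio was 1.56 against 1.80. The 6 tumour CD4 T-like cells with Csf2rb had a mean of 5.50 neutrophil marker UMIs per 10000, against 1.13 in the others. Macrophage markers were present in 6 of 6, against 76.5% of the others, but at a lower mean of 2.24 UMIs per 10000 against 3.98. These 6 cells were deeper, with a median of 14498.5 UMIs against 5351. The part of these markers in the result was not tested. In B-like cells with Csf1r the mean macrophage marker level was 2.69 and 4.37 UMIs per 10000, against 3.59 and 2.62 in those without, and its part in the result was not tested. With cells of a second lineage kept, the log2 ratio of Csf1r was 0.44 against 1.66 in B-like cells and 0.70 against 1.61 in CD4 T-like cells. Csf1r went the other way in the gamma delta T class, with 17.4 and 7.11 CPM (28 and 13 UMIs), where 6.43% of 8494 genes were past 1.5-fold lower. That log2 ratio was -1.29, and -0.59 with an interval that included 0 when cells of a second lineage were kept. Csf2ra was past 1.5-fold higher there (14 and 28 UMIs, against 7.45% of genes higher) and in NK-like cells (14 and 18 UMIs), where it was the 1 of 3 members past the fold and 8.91% of 7702 genes were higher and 7.53% lower.

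Genes around these receptors were counted in lists of signalling partners, targets and inducers. In neutrophil-like cells 2 of 8 tested genes that macrophages switch on under GM-CSF were past 1.5-fold higher and 0 lower, with a list median log2 ratio of 0.24 against 0.04 over all genes, of which 12% were higher and 7.73% lower in these cells. The 2 were Ccl17, a chemokine for T cells, with 10 and 232 UMIs (13.6-fold, 7.27 to 28.7), and Fabp4, a fatty acid binding protein, with 5 and 38 UMIs (4.46-fold, 1.75 to 14.5). Ccl17 was also among the 10 leading genes of conventional dendritic-like cells. Dendritic markers did not set a cell aside from the neutrophil- or macrophage-like class, and the part of dendritic transcripts in the Ccl17 result was not tested. Of 13 genes of the G-CSF response and neutrophil survival, such as Mcl1, Cxcr2 and Socs3, 0 were past 1.5-fold in either direction in these cells (median 0.05). Among 12 tested JAK-STAT genes 1 was higher, Stat5a with 9 and 31 UMIs, and among 12 tested myeloid transcription factors 2 were higher, Irf8 (1.69-fold, 1.13 to 2.58) and Maf (1.92-fold, 1.06 to 3.68). Of 8 tested inducers of these factors 1 was higher, Il18 (1.51-fold, 1.0101 to 2.30), and 1 lower, Tnf, at 416 and 215 CPM (ratio 0.517, 0.461 to 0.579). Of 14 tested genes close to CSF1R signalling, 0 were past the fold.

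In macrophage-like cells 15 of 15 genes close to CSF1R signalling and 12 of 12 JAK-STAT genes lay within 1.5-fold (medians 0.02 and 0.03, against 0.03 over all genes). Of the 11 GM-CSF response genes 2 were higher, Ccl17 (1.75-fold, 1.47 to 2.10) and Ccl24 (1.79-fold, 1.10 to 3.05), and 3 lower, where 6.03% of all genes tested were higher and 4.07% lower. The lower ones were Fabp4 (ratio 0.340, 0.221 to 0.519), the arginine-degrading enzyme Arg1 (ratio 0.383, 0.235 to 0.621) and Chil3 (ratio 0.626, 0.433 to 0.909). In monocyte-like cells the same list had 1 of 9 higher and 4 lower (median -0.36 against 0.00), where 8.63% of all genes tested were higher and 7.98% lower. Of 7 tested inducers 3 were lower and 0 higher there, although the list median was above 0 (0.28 against 0.00). The 3 lower inducers were Tnf at 161 and 25.9 CPM, Il1a at 216 and 35.6 CPM and Il23a with 101 and 0 UMIs. In conventional dendritic-like cells 3 of 8 tested inducers were lower and 0 higher, among them Tnf at 102 and 21.3 CPM and Il1a at 74.8 and 16.1 CPM, and 1 of 11 tested JAK-STAT genes was lower, the inhibitor Socs1 (ratio 0.416, 0.283 to 0.607). Over all genes 10.7% of 8591 were higher and 5.95% lower in that class. In fibroblast-like cells 2 of 6 tested inducers were higher, Nfkb1 (1.76-fold, 1.36 to 2.28) and Il17a with 3 and 28 UMIs, a T cell cytokine, where 9.41% of all genes tested were higher and 8.28% lower. Tyrobp, a leukocyte adaptor gene, was also higher there, at 66.0 and 123 CPM. The median of the leukocyte marker set in fibroblast-like cells went the other way, with 0.743 and 0 UMIs per 10000. The part of leukocyte transcripts in the Il34 result was not tested. Il3 and Il5, the other cytokines that use the beta chain, were under 20 UMIs in each of the 15 classes.

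Across 30 profiles (15 classes in 2 libraries) the genes whose levels ran most like each member were named by Pearson's r of log2(CPM + 10), as a description across classes that share libraries. Csf3r was matched most closely by Clec4d, Slfn4 and Cd300ld (r = 0.98 each), and Csf1r by Lair1, Milr1 and Fcgr1 (r = 0.96, 0.95 and 0.95). Csf2rb ran most like its paralog Csf2rb2 and like Spi1, which encodes PU.1 (r = 0.96 each), and Csf2ra like Nfe2l2 and Wfdc17 (r = 0.95 each). For the ligands the first were Chil1 for Csf1 (r = 0.92), Gm1604a for Csf3 (r = 0.96), and Calca and the osteoclast factor gene Tnfsf11 for Csf2 (r = 0.89 and 0.86). Il34 had too few UMIs to be matched.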

How the data were processed

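Raw UMI counts were read from the 2 matrices the authors deposited, whose headers name Cell Ranger 4.0.0. R 4.0.3, Seurat 3.2.2 and the human build GRCh38 stand in the submitters' processing notes, but all features are mouse genes. For the mouse build, annotation and cell calling, the sources used here give nothing. Library preparation used a 3' kit per the labels' protocols.

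The libraries held 77855775 and 92188538 UMIs in 6553 and 8237 barcodes. Barcodes with under 200 genes or over 20% mitochondrial UMIs were left out. A class needed at least 3 marker UMIs and a set number per 10000, chosen after the markers' distributions were seen. Some marker genes are not reported here. Cells at 50% or more of another main lineage's gate were set aside, and no doublet caller was run. UMIs were summed per library and class with Python 3.11.15, NumPy 2.4.6, SciPy 1.17.1 and pandas 2.3.3. Intervals are exact Poisson for CPM, Clopper-Pearson for shares and conditional binomial for ratios, at 95%, and leave out variation between animals. The floor for a count of 0 is 3 counts. The ratio code was tested on simulated data. Levels of all 8 members in each class of at least 50 cells are shown in the figures. The text gives a part of them. From the lists at most 3 genes per direction and class are named, by the interval bound nearest 1. Further list genes named beside counts were chosen after their values were seen. Members and lists were chosen with earlier results of these data known.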

Additional observations from a re-analysis of the deposited data

How the results depend on the processing

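Each of the 63 ratios between the libraries stayed within their main interval with no cell filter, with at least 500 genes and at most 10% mitochondrial UMIs, with CPM free of mitochondrial and ribosomal protein genes, and without the cell richest in the gene, as did the 62 that could be computed with doubled marker UMIs. With cells of a second lineage kept, 55 of 63 did. The log2 ratio was then -1.17 for Csf1 in CD8 T-like cells, 0.26 for Csf1r and -0.091 for Csf2ra in macrophage-like cells. Thinned to 1000 UMIs per cell, 34 of the 55 ratios that could be computed stayed within it. Those that did not included Csf1 in CD8 T-like (-1.12) and fibroblast-like cells (0.48), and Csf1r (-0.17) and Csf2ra (-0.45) in macrophage-like cells. Levels were recomputed in 1 class per member and library, 16 in all. The class was neutrophil-like for Csf1, Csf3, Csf2ra, Csf2rb and Csf3r, macrophage-like for Csf1r, fibroblast-like for Il34 and innate lymphoid-like for Csf2. With cells of a second lineage kept, 11 of the 16 left their main interval, and 7 did with thinned cells. Without mitochondrial and ribosomal protein genes 5 did, and without the richest cell 1. The other settings kept all 16 within it.

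Shares of ligand UMIs depended on which cells were counted. With cells of a second lineage kept, neutrophil-like cells held 29.6% and 36.7% of Csf1 UMIs and 43.9% and 39.8% of Csf3 UMIs, fibroblast-like cells 9.90% and 8.86% of Csf1 UMIs and innate lymphoid-like cells 9.41% and 16.8% of Csf2 UMIs. With thinned cells, neutrophil-like cells held 77.4% and 80.2% of Csf1 UMIs and 96.3% and 95.1% of Csf3 UMIs, fibroblast-like cells 4.88% and 7.17% of Csf1 UMIs and 100% of normal adjacent Il34 UMIs, and innate lymphoid-like cells 50.0% of tumour Csf2 UMIs. The cause was not tested. No paired analysis was possible because each group is 1 library.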

Other observations

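T-like cells with Foxp3, the factor of regulatory T cells, were 45 and 25 cells. They had 103 CPM (75.9 to 136) and 74.1 CPM (40.5 to 124) of Csf2rb, 45.0 and 42.3 CPM of Csf2ra and 38.6 and 90.0 CPM of Csf1r, each from 4 to 7 cells, and 3 and 0 UMIs of Csf2. Over all T-like cells these receptor chains stood at 40.3 and 36.0, 18.6 and 18.9, and 23.3 and 23.3 CPM. The part of macrophage and neutrophil transcripts in the levels of the Foxp3 cells was not tested.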
